A study of Homo sapiens with 8 samples.

Results

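FZD10, KCNK2 and TRPC4 code for proteins of the cell membrane, and their transcripts carried ribosome footprints in wild-type HAP1 cells and almost none in cells lacking RNF14. They were chosen by that difference: at most 3 reads over the 4 knockout libraries together and 40 or more over the 4 wild-type libraries. These numbers pick 3 of the 19580 transcripts in the table. The choice used the knockout and wild-type reads themselves, so the difference between genotypes is given below as a description and without a test. The transcripts were not wholly silent, since each still had 2 or 3 reads in the knockout.

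Ribosome profiling sequences the pieces of mRNA that ribosomes shield from nuclease, and so reports how many ribosomes sit on each transcript. The cells were HAP1, a near-haploid human line that grows attached to the dish and descends from a chronic myeloid leukaemia line. One genotype was wild type (WT) and the other RNF14 knockout. RNF14 is a ubiquitin ligase that marks proteins at stalled ribosomes. All 8 libraries, controls included, came from cells given 5 uM 4SU for 18 h and then 6 kJ/m2 UVA, a treatment that bonds RNA to the proteins on it, with harvest at 0 or 30 min of recovery. Each of the 4 groups had 2 biological replicates, per the series design. Whether the knockout line is 1 clone is not given in the sources used here, so a difference between the genotypes cannot be told apart from a difference between cell lines. No RNA abundance was analysed, and a lower footprint level can reflect less mRNA or fewer ribosomes on each mRNA.

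FZD10 (Frizzled-10) is a receptor of the Frizzled family. Frizzled proteins span the membrane repeatedly, bind secreted Wnt ligands together with an LRP co-receptor and pass the signal through Dishevelled to beta-catenin and other branches. KCNK2 (TREK-1) is a two-pore-domain potassium channel, a leak channel that opens with membrane stretch, heat, polyunsaturated fatty acids and intracellular acid, and that lowers excitability. TRPC4 is a cation channel of the canonical transient receptor potential family, which lets in calcium and sodium after receptors coupled to phospholipase C are activated. All 3 proteins are made on ribosomes at the endoplasmic reticulum.

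The genes lie on 3 chromosomes and are not neighbours. In RefSeq on GRCh38.p14, FZD10 runs from 130162464 to 130165740 on chromosome 12, KCNK2 from 215005542 to 215237090 on chromosome 1, and TRPC4 from 37632063 to 37869772 on chromosome 13. The table counts FZD10 (ENSG00000111432.5) on a transcript of 3282 nt. The RefSeq gene spans 3277 bases and has 1 listed transcript. KCNK2 (ENSG00000082482.14) was counted on 1491 nt and TRPC4 (ENSG00000133107.15) on 2784 nt, out of genes that span 231549 and 237710 bases, so here nearly all of the gene is intron or otherwise outside the counted transcript. RefSeq lists 7 transcripts for KCNK2 and 11 for TRPC4, and reads of other forms are only seen where they share the counted sequence.

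The 250 bases before the annotated starts are shown as a description of the genes. Low reads in the same libraries were the rule of choice, and promoter activity was not tested. Capitals mark CG dinucleotides, whose density sets broad classes of human promoter apart. The RefSeq promoter table (GRCh38.p14) held 2 starts for KCNK2 and 1 for TRPC4. FZD10 was not matched. The windows are chr1:215005292-215005541 and chr1:215082487-215082736, both on the plus strand, and chr13:37869773-37870022 on the minus strand, each written 5′ to 3′.
KCNK2, first start: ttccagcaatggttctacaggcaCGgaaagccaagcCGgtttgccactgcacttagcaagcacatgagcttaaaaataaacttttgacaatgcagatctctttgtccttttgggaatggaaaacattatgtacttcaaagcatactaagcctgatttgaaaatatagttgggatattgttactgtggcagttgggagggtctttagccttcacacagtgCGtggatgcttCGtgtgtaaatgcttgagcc
KCNK2, second start: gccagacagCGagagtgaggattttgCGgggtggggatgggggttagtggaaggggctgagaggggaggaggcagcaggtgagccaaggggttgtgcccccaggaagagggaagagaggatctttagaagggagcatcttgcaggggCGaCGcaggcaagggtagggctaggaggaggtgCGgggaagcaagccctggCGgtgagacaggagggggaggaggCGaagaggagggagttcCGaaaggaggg
TRPC4: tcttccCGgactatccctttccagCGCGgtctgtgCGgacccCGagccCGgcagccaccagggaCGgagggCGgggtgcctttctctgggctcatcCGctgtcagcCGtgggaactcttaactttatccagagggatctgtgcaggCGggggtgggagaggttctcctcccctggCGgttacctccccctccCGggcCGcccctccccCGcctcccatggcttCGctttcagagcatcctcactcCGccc

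The promoter windows of the 2 channels were not alike. The first KCNK2 window held 4 CG dinucleotides and was 42.8% G or C, and the second held 8 and was 63.6% G or C. The TRPC4 window held 17 and was 67.2% G or C. Over all 35116 windows in the table the median was 11 CG, with quartiles at 3 and 23, and the median G or C content was 58.0%. Both KCNK2 windows thus lay below the median and the TRPC4 window above it, as 29.3%, 43.7% and 61.1% of all windows held fewer CG than these windows. The motif GGGCGG, searched on both strands, overlapping matches included, occurred 3 times in the TRPC4 window and in neither KCNK2 window, and 42.6% of all windows hold it. Each such match includes a CG. TATAAA and CCAAT, searched likewise, occurred in none of the windows, against 10.7% and 32.0% of all windows. Which KCNK2 start was in use in these cells was not tested.

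**Figure D1:**
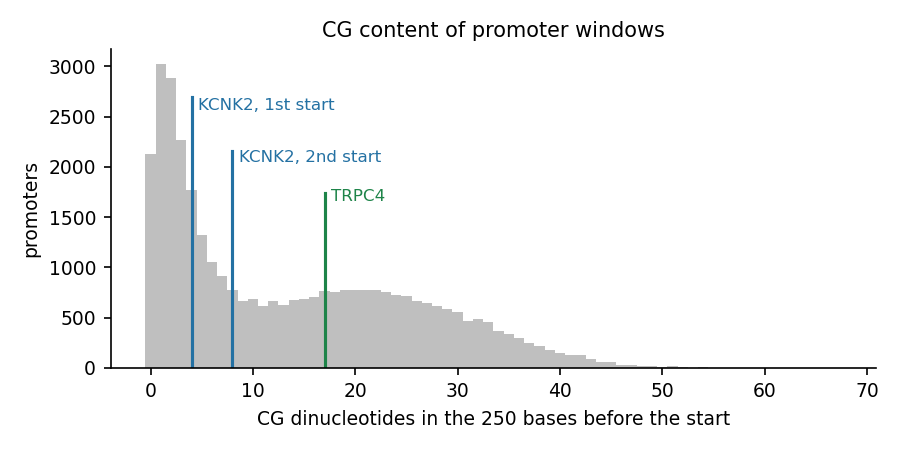
Number of CG dinucleotides in the 250 bases before each annotated start, for 35116 RefSeq promoter windows (grey bars, number of windows). Coloured lines mark the first KCNK2 window at 4, the second at 8 and the TRPC4 window at 17.

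Read numbers set the precision of everything that follows. RPKM, reads scaled to the length of the transcript and the size of the library, gave whole reads when multiplied by that length, so the reads behind each value are known. The libraries held between 323946 reads (knockout at 30 min, replicate 1) and 1241975 reads (knockout at 0 min, replicate 1). The wild-type libraries held 3096580 reads in all and the knockout libraries 2803831, and each library at 30 min was shallower than each at 0 min. Intervals below are exact 95% binomial (Clopper-Pearson) intervals, which cover counting error only. For knockout levels and for ratios between genotypes they do not allow for the choice of genes by the same reads, which favours high ratios.

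The Wnt receptor gene FZD10 had the largest number of wild-type reads of the 3 genes and the fewest in the knockout. In wild type at 0 min FZD10 was at 8.55 and 8.78 RPKM, on 25 and 28 reads. At 30 min wild type was at 5.52 and 2.95 RPKM, on 13 and 5 reads. In the knockout FZD10 had 0 reads and 1 read at 0 min, or 0 and 0.391 RPKM, and 0 reads and 1 read at 30 min, or 0 and 0.663 RPKM. Every wild-type library was above every knockout library, and the lowest wild-type value was 4.45 times the highest knockout value. The libraries with 0 reads differ in what they show. The interval of 0 reads ran to 0.905 RPKM in the deep knockout library at 0 min and to 3.47 RPKM in the shallow one at 30 min. The second limit is above the 2.95 RPKM of the lowest wild-type library.

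Summed over libraries, FZD10 had 71 wild-type and 2 knockout reads, where the wild-type share would have given 64.3 reads. The share of reads on FZD10 was 32.1 times higher in wild type, with an interval from 8.58 to 271. That ratio rested on single reads and single libraries. It was 17.9 without knockout 0 min replicate 1, the deepest library, and 53.8 without knockout 30 min replicate 2. At 0 min the wild-type share was 57.5 times that of the knockout (9.88 to 2314), and at 30 min 11.4 times (1.80 to 476).

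KCNK2, the stretch-sensitive potassium channel gene, had the highest level per length of the 3 in wild type. KCNK2 was at 9.79 and 9.66 RPKM in wild type at 0 min, on 13 and 14 reads. At 30 min the wild-type libraries were at 14.9 and 18.2 RPKM, on 16 and 14 reads. The knockout had 1 read and 0 reads at 0 min, or 0.540 and 0 RPKM, and 1 read in each library at 30 min, or 2.07 and 1.46 RPKM. No knockout library reached a wild-type one, and the lowest wild-type value was 4.67 times the highest knockout value. The knockout values at 30 min are loosely bounded. In the shallowest library the interval of the 1 read ran to 11.5 RPKM, above both wild-type values at 0 min. With 1 and 2 reads in the knockout at the 2 times, no change over time in the knockout could be read.

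KCNK2 had 57 wild-type and 3 knockout reads, where the wild-type share would have given 51.6. Its share was 17.2 times higher in wild type (5.60 to 85.9), and 12.4 to 22.8 times when any single library was left out. The ratio was 29.3 (4.83 to 1199) at 0 min and 9.52 (2.42 to 82.2) at 30 min.

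TRPC4, the calcium-permeable channel gene, had the fewest wild-type reads. TRPC4 was at 8.47 and 3.70 RPKM in wild type at 0 min, on 21 and 10 reads. Wild type at 30 min was at 5.00 and 4.17 RPKM, on 10 and 6 reads. The knockout had 1 read in each library at 0 min, or 0.289 and 0.461 RPKM, and 0 reads and 1 read at 30 min, or 0 and 0.782 RPKM. The wild-type libraries again lay above all knockout libraries, the lowest at 4.73 times the highest knockout value. The wild-type replicates at 0 min were far apart: replicate 1 had 2.29 times the read share of replicate 2, with a counting interval from 1.03 to 5.45. For FZD10 and KCNK2 that ratio at 0 min was 0.974 (0.545 to 1.73) and 1.01 (0.438 to 2.32), so the same libraries gave close values there.

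TRPC4 had 47 wild-type and 3 knockout reads, where the wild-type share would have given 42.6. The wild-type share was 14.2 times that of the knockout (4.57 to 71.3), and between 11.0 and 17.8 times when any single library was left out. At 0 min it was 16.8 times (4.28 to 145) and at 30 min 10.2 times (1.58 to 426). The intervals of all 3 genes overlap widely, so the genes could not be ordered by how much lower they were in the knockout.

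**Figure D2:**
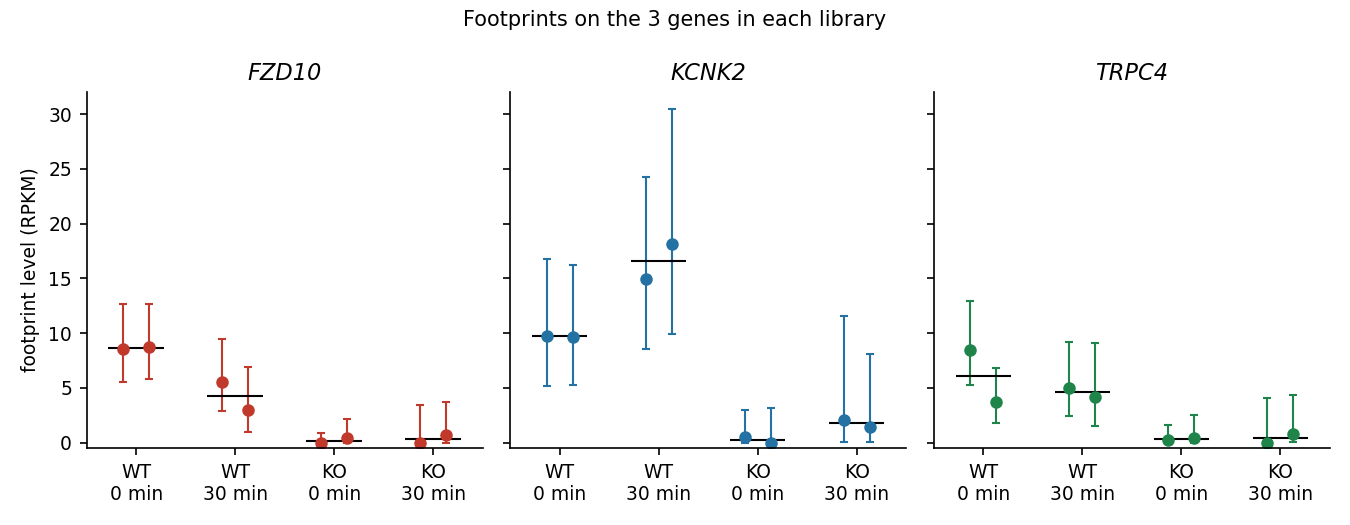
Footprint level (RPKM) of FZD10, KCNK2 and TRPC4 in each of the 8 libraries, by genotype and recovery time (WT, wild type; KO, RNF14 knockout). Points are libraries with exact 95% counting intervals and black lines are means of 2 libraries. Wild-type points lie between 2.95 and 18.2 RPKM and knockout points between 0 and 2.07 RPKM.

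In wild type the 3 genes had middling levels among the transcripts with reads. The choice required 40 or more wild-type reads, which 9523 transcripts had, so these ranks are in part set by the choice. Averaged over the 4 wild-type libraries KCNK2 was at 13.1 ± 4.16 RPKM, FZD10 at 6.45 ± 2.77 and TRPC4 at 5.34 ± 2.16 (SD, n = 4 each). Of the 14953 transcripts with at least 1 wild-type read, 61.0% had a lower wild-type mean than KCNK2, 43.8% a lower one than FZD10 and 40.1% a lower one than TRPC4. At 0 min the order of levels was KCNK2 at 9.73 ± 0.0893, FZD10 at 8.67 ± 0.161 and TRPC4 at 6.08 ± 3.37 RPKM (SD, n = 2 each). By reads at 0 min the order was FZD10 with 53, TRPC4 with 31 and KCNK2 with 27. The order of levels thus rests on the counted lengths, and how much of each is coding is not given in the sources used here. In RPKM at 0 min TRPC4 and FZD10 did not differ beyond the spread of TRPC4. At 30 min KCNK2 stood at 16.6 ± 2.29 RPKM, above TRPC4 at 4.59 ± 0.587 and FZD10 at 4.23 ± 1.82 (SD, n = 2 each). The last pair did not differ beyond its spread.

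Among the 9523 transcripts with 40 or more wild-type reads, these 3 were the ones with at most 3 knockout reads, 0.0315% of that class. The median transcript of the class had a knockout read share 0.965 times that of wild type. A knockout share below 0.1 of the wild-type share was reached by 5 of the 9523, or 0.0525%, the 3 genes among them. Just outside the threshold lay 2 transcripts with 4 knockout reads, on 54 and 65 wild-type reads, and 2 with 31 and 39 wild-type reads and 3 and 2 knockout reads. Just inside was TRPC4 with 47. The opposite pattern, at most 3 wild-type reads and 40 or more knockout reads, was seen in 6 of the 9201 transcripts with 40 or more knockout reads.

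**Figure D3:**
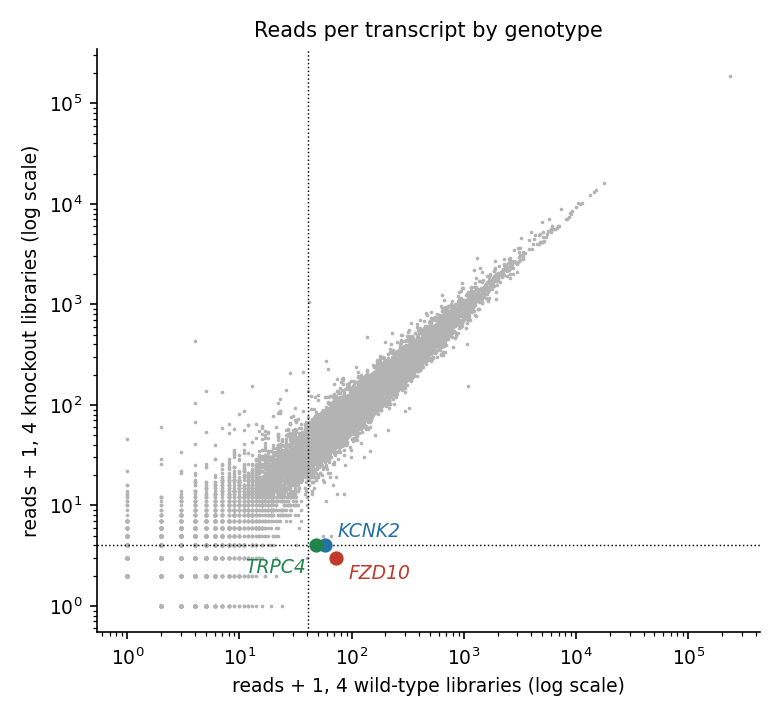
Reads per transcript summed over the 4 wild-type libraries (x axis) and the 4 knockout libraries (y axis), each plus 1, on log scales. Dotted lines mark 40 wild-type and 3 knockout reads. FZD10 (71 and 2 reads), KCNK2 (57 and 3) and TRPC4 (47 and 3) lie at or below the horizontal line and right of the vertical one.

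A model of all 11920 transcripts with a mean of 1 RPKM or more (limma-trend on log2(RPKM + 1), Benjamini-Hochberg) gives the background of the genotype contrast that chose the genes. Averaged over time it called 45 transcripts, 30 higher and 15 lower in the knockout, or 0.378%, and 0.126% lower. All 4 knockout libraries lay below all 4 wild-type libraries for 261 transcripts, or 2.19%, and above for 256, or 2.15%. On this scale, which understates changes of low transcripts, the fitted knockout minus wild-type difference was -2.51 for FZD10, -2.89 for KCNK2 and -2.17 for TRPC4. The genes were chosen for these differences and nothing is read from them.

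The choice summed over both times and so did not use the change between times within wild type, which was tested. The test is not fully free of the choice. Its spread came from all 8 libraries, including the knockout libraries that the choice held near 0. None of the genes passed: 0 of 3 were called, where 385 of 11920 transcripts, or 3.23%, were called in either direction, 1.79% higher and 1.44% lower (limma-trend, adjusted p below 0.05). In this fit an unadjusted p below 0.05 was reached by 0 of the 3, and by 20.9% of all tested transcripts. Limma-trend on the wild-type libraries alone gave unadjusted p = 0.0365 for FZD10, 0.0437 for KCNK2 and 0.566 for TRPC4. Their adjusted p were 0.196, 0.215 and 0.771, and 21.7% of tested transcripts were below 0.05 unadjusted. FZD10 and KCNK2 were also below it with a pseudocount of 5 or no trend in the prior, and KCNK2 with median centring or quantile normalization. Modelling the recovered reads as counts instead (limma voom), 0 were called and 1, FZD10, had an unadjusted p below 0.05, as had 25.2% of all tested transcripts. Comparing 2 libraries with 2 can give no exact permutation p below 0.333, so no single-gene permutation could pass.

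FZD10 was lower at 30 min than at 0 min in wild type, in both libraries, without passing the test. The mean was 8.67 ± 0.161 RPKM at 0 min and 4.23 ± 1.82 RPKM at 30 min (SD, n = 2 each). The log2 change was -0.93 (SE 0.49, 95% interval -2.02 to 0.16, limma adjusted p = 0.31). The read share at 30 min was 0.512 of that at 0 min, with a counting interval from 0.282 to 0.889, which leaves out the spread between replicates. Both libraries at 30 min lay below both at 0 min for 38.9% of all tested transcripts. The median tested transcript was also lower at 30 min, with a log2 change of -0.26, and relative to that median FZD10 was at -0.67. RPKM is scaled to library size, so the median does not report a change in total footprints.

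KCNK2 was higher at 30 min in both wild-type libraries, again without passing. The mean was 9.73 ± 0.0893 RPKM at 0 min and 16.6 ± 2.29 RPKM at 30 min (SD, n = 2 each). The log2 change was 0.71 (SE 0.39, 95% interval -0.15 to 1.56, limma adjusted p = 0.328), or 0.96 relative to the median transcript. The ratio of read shares was 1.68 (0.963 to 2.93). Both libraries at 30 min lay above both at 0 min for 14.0% of tested transcripts.

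TRPC4 at 30 min, at 5.00 and 4.17 RPKM, lay between its replicates at 0 min, at 8.47 and 3.70 RPKM. The log2 change was -0.26 (SE 0.52, 95% interval -1.41 to 0.89, limma adjusted p = 0.818), close to the median of all transcripts, and the ratio of read shares was 0.779 (0.398 to 1.47). Its sign turned without wild type 0 min replicate 1, to 0.25, and under median centring or quantile normalization, to 0.02 and 0.03. The intervals of all 3 genes include 0 and reach past 1 log2 unit in 1 direction, so these data do not show that the genes kept their level.

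**Figure D4:**
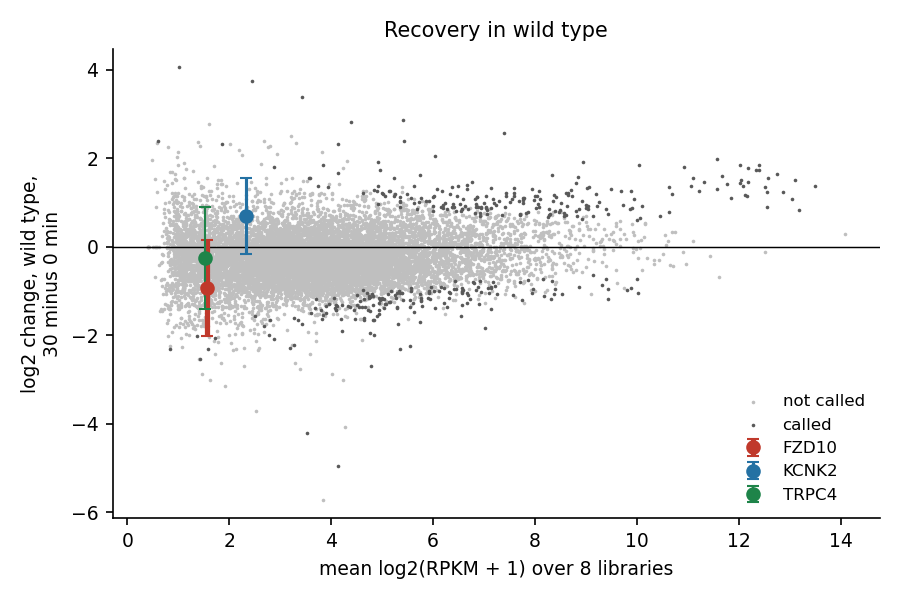
Log2 change in wild type, 30 minus 0 min, against mean log2(RPKM + 1) over the 8 libraries for 11920 tested transcripts (light grey, not called; dark grey, called). Coloured points with bars are FZD10 (-0.93), KCNK2 (0.71) and TRPC4 (-0.26) with 95% intervals of the fit, all of which cross 0.

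The reads of the genes can also be set against each other within a library, which needs no scaling. These shares were chosen after the values were seen and restate the values above, so they are a description with no test. Of the reads on FZD10 and KCNK2 together, FZD10 held 65.8% of 38 (48.6% to 80.4%) and 66.7% of 42 (50.5% to 80.4%) in the wild-type libraries at 0 min. At 30 min it held 44.8% of 29 (26.4% to 64.3%) and 26.3% of 19 (9.15% to 51.2%). Both values at 30 min were below both at 0 min, while the counting interval of each library at 30 min overlaps those of both libraries at 0 min. Of the reads on FZD10 and TRPC4, FZD10 held 54.3% and 73.7% at 0 min and 56.5% and 45.5% at 30 min, which overlap. KCNK2 held 38.2% and 58.3% of the reads on KCNK2 and TRPC4 at 0 min and 61.5% and 70.0% at 30 min. The values at 30 min were higher, but the counting intervals overlap. They were 22.2% to 56.4% and 36.6% to 77.9% at 0 min, and 40.6% to 79.8% and 45.7% to 88.1% at 30 min.

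**Figure D5:**
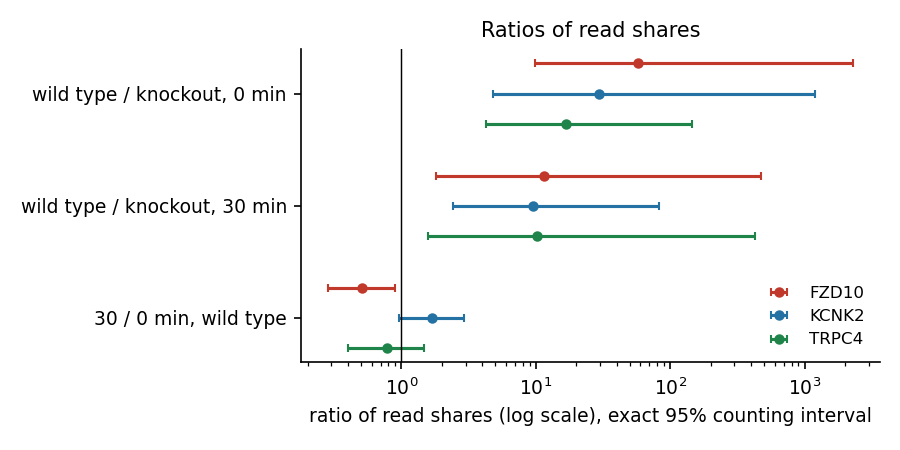
Ratios of read shares on a log axis with exact 95% counting intervals: wild type over knockout at 0 min and at 30 min, and 30 over 0 min in wild type, for FZD10, KCNK2 and TRPC4. The genotype ratios lie between 9.52 and 57.5. The genes were chosen on these same reads, so intervals above 1 are no test of a difference. The recovery ratios lie between 0.512 and 1.68.

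Whether recovery differed between genotypes is given no test for these genes, because their choice fixed the knockout side near 0 at both times, at 1 or 2 reads per gene and time.

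Over the 8 libraries the levels of the 3 genes ran together, as the choice of genes dictates. Pearson's r of log2(RPKM + 1) was 0.95 between FZD10 and TRPC4, 0.87 between KCNK2 and TRPC4 and 0.84 between FZD10 and KCNK2. Of the tested transcripts, 4 had a higher r with FZD10 than TRPC4 had, and 93 a higher one than KCNK2 had. These are descriptions over 8 libraries that share the split by genotype, and the other transcripts could not be named.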

How the data were processed

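Per the submitters' processing notes, cutadapt, STAR 2.7.10a and hg38 were used. How transcripts and the counted region were chosen is not given in the sources used here. RPKM values as deposited by the authors came with lengths for 19580 transcripts in 8 libraries. One knockout column (30 min, replicate 1) has an unexplained suffix and was matched by genotype, time and replicate. Whole reads were recovered from RPKM times length (100% of values above 0 within 0.05 of a whole number).

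Values were tested as log2(RPKM + 1), computed from the deposited RPKM, with limma-trend (limma 3.58.1, R 4.3.3) in 1 fit of 4 group means over all 8 libraries, for 11920 transcripts with a mean of 1 RPKM or more, two-sided, with Benjamini-Hochberg adjustment over all of them and a threshold of 0.05. The fit was also run on simulated data with known changes. The outcome is not given here, so nothing is read from it about power at the read numbers of these genes. RPKM is no count, so limma voom on recovered reads was an alternative. Other alternatives were pseudocounts of 0.1 and 5, other filters, scalings, priors and samples, a replicate block and leaving out each library. Ratios of read shares carry exact 95% intervals (scipy 1.17.1). Figures used matplotlib 3.10.9.

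The genes and lists were chosen with earlier results of these data known. The named genes are the 3 chosen by reads. A planned rule to name the transcripts most alike in pattern could name no others, as no other transcript had a name. The gene table used here held 0 Ensembl IDs. The names of the 3 genes came with the selection, and the lists of Frizzled, Wnt pathway, potassium channel, TRPC and cell type marker genes, the neighbouring genes and the check of RNF14 itself were not analysed here, nor was the HAP1 label checked against markers.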

Additional observations from a re-analysis of the deposited data

How the results depend on the processing

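No alternative brought any of the 3 genes past the threshold for recovery in wild type. Limma adjusted p ran from 0.143 to 0.690 for FZD10 (18 alternatives), from 0.166 to 0.643 for KCNK2 (19) and from 0.534 to 0.990 for TRPC4 (18). FZD10 and TRPC4 fell below the filter of a mean of 5 RPKM. The change stayed negative for FZD10 (-1.29 to -0.57) and positive for KCNK2 (0.44 to 0.99) under all of theirs. For TRPC4 it turned to 0.0203 with median centring, 0.0314 with quantile normalization and 0.25 without wild type 0 min replicate 1, and ran from -0.76 to 0.25 when single libraries were left out. The cause was not tested. The median change of all transcripts was -0.54 with TPM, 0.02 with median centring and -0.02 with quantile normalization. Relative to it FZD10 was at -0.71, -0.67 and -0.64, KCNK2 at 0.98, 0.96 and 1.01, and TRPC4 within 0.05 of 0.

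The count of transcripts called for recovery in wild type was 1385 with TPM (161 up and 1224 down, against 213 and 172), 1176 with voom (400 up, 776 down), 2 without a trend in the prior, and 80 to 621 when single libraries were left out. It was 342 up and 22 down with median centring, and 284 and 135 with quantile normalization. The count for genotype averaged over time was 25 with a pseudocount of 0.1, 176 with voom, and 20 to 112 when single libraries were left out.

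The replicate numbers are shared by all groups, but nothing says that they mark a shared batch. Deviations of same-numbered libraries correlated with r from -0.08 to 0.07 between groups. With the replicate block 330 transcripts were called for recovery and 40 for genotype. FZD10, KCNK2 and TRPC4 kept log2 changes of -0.93, 0.71 and -0.26, none called.

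The ratios of read shares, wild type over knockout, were recomputed in 10 ways chosen after seeing the data. They ran from 17.9 to 53.8 for FZD10, 12.4 to 22.8 for KCNK2 and 11.0 to 17.8 for TRPC4, each range lying within the counting interval of its gene. With 2 or 3 reads per gene in the knockout, depth limits every knockout level.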
